A study of Mus musculus with 3 samples.

Results

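The glutathione S-transferases (GST) described here are 10 genes chosen by name, Gsta2, Gsta3, Gsta4, Gstm1, Gstm2, Gstm5, Gstp1, Gstt1, Gsto1 and Mgst1. The choice was made with earlier results of these arrays known. They were read through every array probe whose RefSeq accession belongs to one of these symbols, which gave 16 probes of the 27235 named probes on the array, or 10 of 20660 named genes. The samples were cultures of NIH3T3, an immortalized mouse fibroblast line, labelled as wild-type and grown to confluency, with 1 one-colour Agilent array per condition. One culture had no treatment (None), another was given 20 µM AR7 and the other 20 µM BMS614, and cells were collected after 24 h. BMS614 is a selective antagonist of retinoic acid receptor α (RARα), and AR7 is a compound that acts on the same receptor and activates chaperone-mediated autophagy. Both compounds were dissolved in DMSO, and the labels do not say whether the untreated culture received DMSO, so that solvent and compound cannot be told apart in a comparison with None. Each pair of conditions was compared through the same 3 arrays. No difference below has a replicate check, none was tested, and both compounds are set against the same None array.

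GST enzymes join the thiol of the tripeptide glutathione to electrophilic compounds, among them drugs, carcinogens and the aldehydes formed by lipid peroxidation, which makes these compounds more soluble and easier to export. The cytosolic enzymes are sorted by sequence into classes named by Greek letters (alpha, mu, pi, theta, omega and others), and the microsomal enzymes such as MGST1 belong to an unrelated family of membrane proteins. Many GST genes are known targets of NRF2, a transcription factor that is held inactive by KEAP1 and binds antioxidant response elements in the promoters of detoxifying genes once electrophiles or oxidants modify KEAP1.

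Between 55.4% (None) and 61.8% (BMS614) of the 55681 probes on an array were well above background, and all 16 GST probes were so on each of the 3 arrays, with none saturated. All 10 fibroblast markers were well above background on the 3 arrays, with Col3a1 near the lower end, at a log2 level of 5.55 on the None array. The log2 of their summed level was between 18.93 and 19.04, a sum set by the brightest of them. None of the 10 was counted as higher or lower in any comparison, but all 10 lay lower with AR7 than with BMS614, by a median of -0.10, and the epithelial marker Krt14 was counted as lower in that comparison, at -0.35. Against None, 5 of the 10 fibroblast markers lay above 0 with AR7 and 6 with BMS614. Of markers of other cells, 3 of 4 epithelial, 2 of 3 endothelial, 1 of 3 leukocyte, 1 of 3 adipocyte and 0 of 3 hepatocyte genes were well above background on all 3 arrays. The log2 of their summed levels ran from 8.81 to 9.04, from 13.11 to 13.25, from 6.15 to 6.50, from 6.04 to 6.42 and from 4.82 to 4.93, and Epcam passed the background limit on none. Their part in the differences below was not tested. A level below is a log2 intensity after RMA background correction and quantile normalization, and levels are compared for the same probe only, between arrays. The error given with a difference is the SD of the same difference between repeated spots of probes in the same bin of signal. It was taken from 265 probes in 10 bins, the Gsta4 probe among them, and covers spots on an array and not cultures. A gene was counted as higher or lower if its log2 difference was at least 0.32 in size and more than 2 SD of that error.

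Because the 10 genes were chosen with earlier results of these arrays known, the counts below describe them and were not tested. With AR7, 4 of the 10 GST genes were higher than on the None array, namely Gsta2, Gsta4, Gstm1 and Mgst1, and none was lower. By the same rule, 2.15% of the 13804 named genes that passed the background limit on each of the 3 arrays were higher with AR7 and 1.88% were lower. With BMS614, no GST gene was higher and none was lower, where 2.94% of all genes were higher and 3% were lower. Set against BMS614, the AR7 array was higher for Gsta2, Gsta4 and Gstm1, or 3 of 10 genes, and lower for none, against 2.01% and 1.93% of all genes. Counted by probe, 7 of 16 GST probes were higher with AR7 (background 3.08%) and 6 of 16 were higher with AR7 than with BMS614 (background 3.04%). None was lower (backgrounds 2.71% and 2.6%), and with BMS614 none was higher (background 4.38%) or lower (background 5%).

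The number of GST genes counted depends on the limit on size. At 1.5-fold, 2 genes were higher with AR7, Gsta2 and Gsta4, against 0.652% of all genes, and at 2-fold only Gsta2 was, against 0.13%. With the 2 SD limit alone, 7 of 10 were higher with AR7 and 2 of 10 with BMS614, against 9.89% and 13.8% of all genes. With BMS614 no GST gene reached 1.5-fold (background 0.978%) or 2-fold (background 0.174%). For AR7 against BMS614, Gsta2 was the only gene past 1.5-fold (background 0.616%) and past 2-fold (background 0.116%), and 7 of 10 genes were higher by 2 SD alone (background 14.2%).

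The median log2 difference over the 10 genes, each read from its brightest probe, was 0.32 for AR7 against None and 0.03 for BMS614 against None. For AR7 against BMS614 it was 0.28. The median over all 13804 genes was within 0.003 of 0 in each comparison. With AR7, 9 of the 10 genes lay above 0 and Gstt1 lay below, whereas 6 lay above 0 with BMS614. In these bulk samples, more cells that express a gene and more RNA per cell cannot be told apart.

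**Figure D1:**
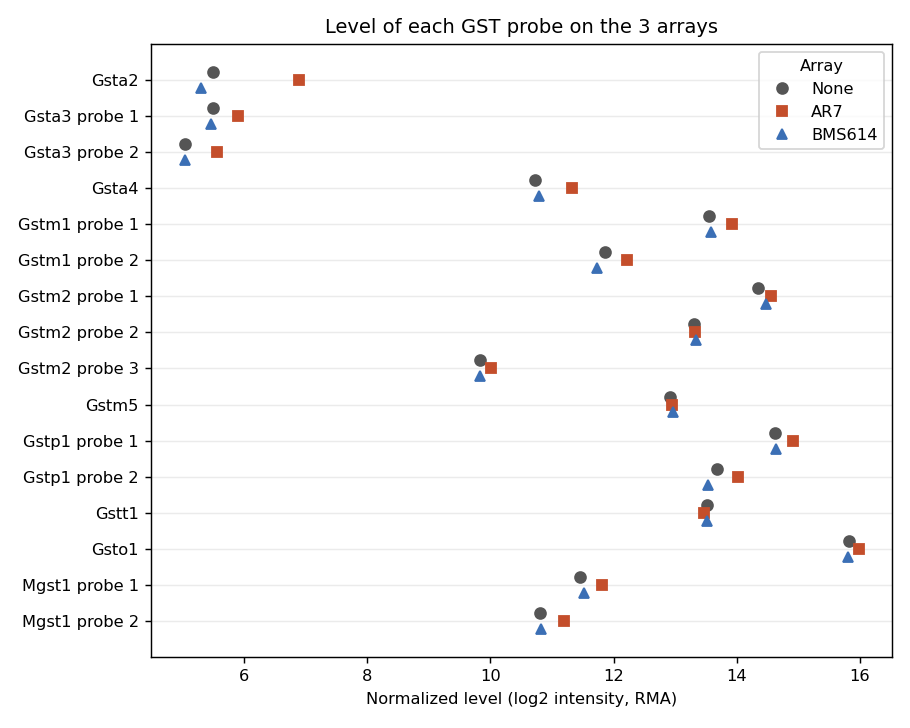
Normalized level (log2 intensity, horizontal axis) of each of the 16 GST probes on the None, AR7 and BMS614 arrays, 1 point per array. For Gsta2, Gsta4, Gstm1 and Mgst1 the AR7 point lies to the right of the other points, while the 3 points of Gstm5 and of Gstt1 differ by at most 0.05.

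**Figure D2:**
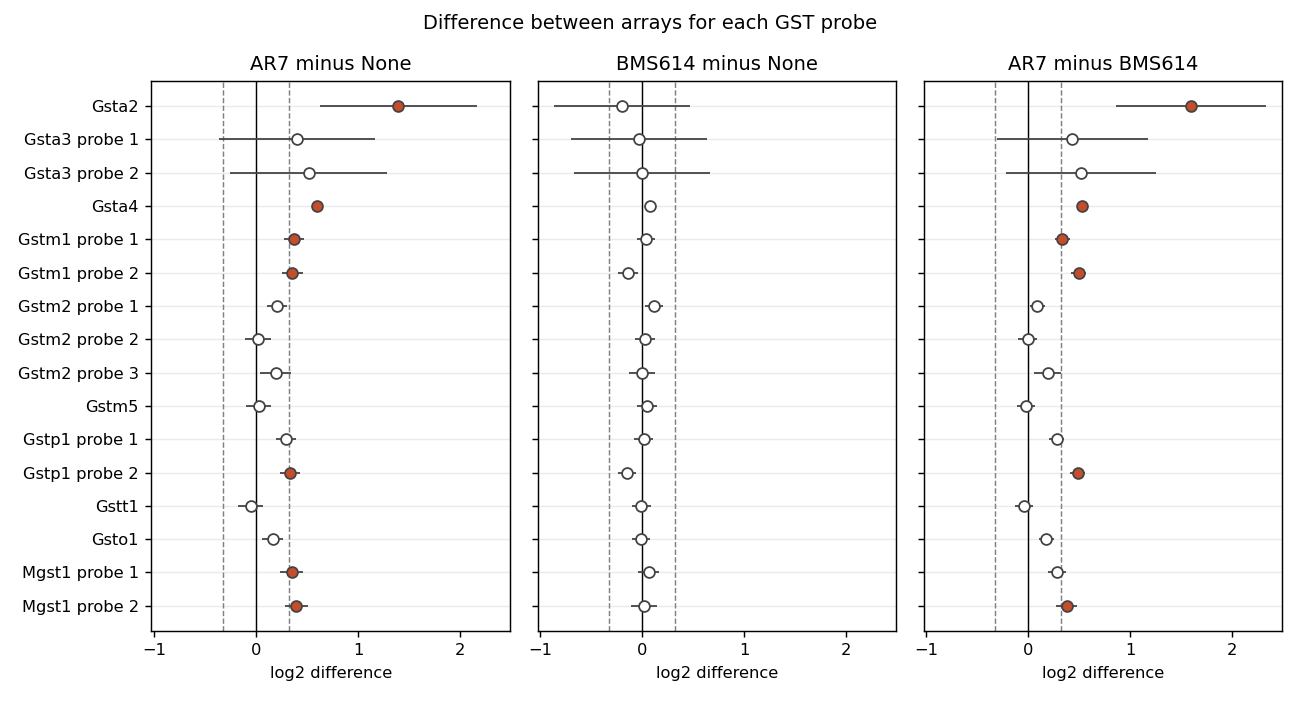
Log2 difference (horizontal axes) of each GST probe for AR7 minus None, BMS614 minus None and AR7 minus BMS614, with bars of 2 SD of the error from repeated spots, dashed lines at 0.32 and filled points for probes past both limits. Filled points number 7 in the AR7 panel, 0 in the BMS614 panel and 6 in the panel of AR7 against BMS614.

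Sequence before the start of transcription was in the RefSeq table of promoters for 9 of the 10 genes, and is shown for Gsta2, which differed most between arrays, for 4 genes with a match to a known element, and for Gstp2, the neighbour of Gstp1. The 250 bases before each start (build GRCm38.p6, 5′ to 3′ on the gene's strand, first window listed) were searched on both strands. The letters searched were TGACNNNGC, the core of the antioxidant response element, TGANNNNGC, a looser form that contains the first, TGANTCA, the AP-1 site, which can lie inside the second, and AGGTCA, the hexamer to which retinoic acid receptors bind. Capitals mark every match.
Gsta2, chr9:78347146-78347395, minus strand: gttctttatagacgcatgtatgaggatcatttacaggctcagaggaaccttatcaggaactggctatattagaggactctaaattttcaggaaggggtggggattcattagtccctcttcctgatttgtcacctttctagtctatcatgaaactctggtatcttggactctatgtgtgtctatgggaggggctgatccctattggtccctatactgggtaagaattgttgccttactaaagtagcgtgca
Gsta3, chr1:21240335-21240584, plus strand: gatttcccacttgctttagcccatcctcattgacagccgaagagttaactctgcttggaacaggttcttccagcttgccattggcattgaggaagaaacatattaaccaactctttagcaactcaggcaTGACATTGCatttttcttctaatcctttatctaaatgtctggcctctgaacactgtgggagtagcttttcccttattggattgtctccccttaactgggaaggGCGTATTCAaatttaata
Gstp1, chr19:4037913-4038162, minus strand: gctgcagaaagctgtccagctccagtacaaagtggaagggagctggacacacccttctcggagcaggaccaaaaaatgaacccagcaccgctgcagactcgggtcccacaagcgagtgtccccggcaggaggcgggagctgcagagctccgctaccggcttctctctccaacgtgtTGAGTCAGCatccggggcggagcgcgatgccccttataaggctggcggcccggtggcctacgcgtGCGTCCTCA
Gstp2, chr19:4042222-4042471, minus strand: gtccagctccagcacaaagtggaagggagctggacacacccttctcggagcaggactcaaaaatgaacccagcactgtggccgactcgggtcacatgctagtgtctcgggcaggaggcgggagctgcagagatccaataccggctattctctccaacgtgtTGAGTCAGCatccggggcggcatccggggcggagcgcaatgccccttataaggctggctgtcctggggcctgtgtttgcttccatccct
Mgst1, chr6:138140277-138140526, plus strand: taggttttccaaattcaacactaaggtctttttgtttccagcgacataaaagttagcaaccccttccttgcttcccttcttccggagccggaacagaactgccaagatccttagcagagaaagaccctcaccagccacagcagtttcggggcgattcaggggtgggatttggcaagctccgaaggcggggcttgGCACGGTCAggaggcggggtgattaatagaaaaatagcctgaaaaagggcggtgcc
Gstm5, chr3:107895604-107895853, plus strand: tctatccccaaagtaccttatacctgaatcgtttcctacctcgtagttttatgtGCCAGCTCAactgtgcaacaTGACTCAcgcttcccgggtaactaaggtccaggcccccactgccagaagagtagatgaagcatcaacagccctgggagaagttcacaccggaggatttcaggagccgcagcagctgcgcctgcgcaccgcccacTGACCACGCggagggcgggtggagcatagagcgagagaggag

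TGACNNNGC was present in 3 of the 9 genes, and in 10.16% of 32851 promoter windows in the table. Gsta3 held TGACATTGC at positions -121 to -113 before the start, Gstm5 held TGACCACGC at -42 to -34, and Mgst1 held GCACGGTCA, the same core on the other strand, at -56 to -48. Of these 3 genes, Mgst1 was higher with AR7, Gsta3 was not past the error and Gstm5 was near 0. The looser TGANNNNGC was present in 5 of 9 genes, with Gstp1 and Gstt1 added, and in 35.2% of all windows. Among other genes of the GST families with a window, 11 of 18 held it and 1 of 18 held TGACNNNGC. Each gene was counted once here, while the percentages count windows. Gstp1 held TGAGTCAGC at -74 to -66, and its neighbour Gstp2 held the same letters at -89 to -81, with 78.49% of bases identical over the aligned windows. AP-1 sites were present in Gstp1 and Gstm5, or 2 of 9 genes, against 2 of 18 other GST genes and 6.749% of windows. AGGTCA was present in 0 of 9 genes, in 1 of 18 other GST genes and in 14.02% of windows. In the window of Gsta2, which had the largest difference with AR7 of the 10 genes, none of these letters was found. These are matches of letters in a short window and not measured binding.

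The largest differences with AR7 among the 10 genes were those of the alpha-class genes Gsta2 and Gsta4. Gsta2 encodes an alpha-class enzyme that conjugates glutathione to many foreign compounds and reduces lipid hydroperoxides. Its only probe was dim, with levels of 5.50 on the None array, 6.90 with AR7 and 5.31 with BMS614, which correspond to scanner intensities of 151, 247 and 176 before background correction. AR7 was apart from the other arrays, which lay within 0.20 of each other. Gsta2 was thus higher with AR7 than without by 1.40 (2.63-fold, SD 0.38) and higher with AR7 than with BMS614 by 1.59 (3.02-fold, SD 0.37). Among the 13804 genes, each read from its brightest probe, its difference was the largest of all for AR7 against BMS614 and rank 8 for AR7 against None. The size varied with the processing. The differences were 1.36 and 1.44 after 75th percentile scaling of the processed signal and 1.11 and 1.26 from the deposited table, and after normexp correction with an offset of 50 they were 0.63 and 0.72, at ranks 13 and 6 for AR7 against None and against BMS614. In the deposited table the rank against BMS614 was 3, and in the other alternatives it was 1.

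Gsta4 encodes the alpha-class enzyme with high activity toward 4-hydroxynonenal, an aldehyde of lipid peroxidation. Its probe is printed 10 times on each array, and it is the only one of the 16 probes with repeated spots of its own. Over the 9 positions without an outlier mark, the level was 10.72 ± 0.09 (SD, 9 spots) on the None array, 11.32 ± 0.12 with AR7 and 10.79 ± 0.10 with BMS614. The 9 spots on the AR7 array ran from 11.18 to 11.49, and did not overlap with those on the None array (10.61 to 10.88) or the BMS614 array (10.66 to 10.95). Position by position, Gsta4 was higher with AR7 than without by 0.60 ± 0.06 (1.52-fold), and the 9 differences ran from 0.49 to 0.69. BMS614 differed from None by 0.07 ± 0.04, from 0.02 to 0.15, which is above 0 at each position and under the 0.32 limit. AR7 lay 0.53 ± 0.06 above BMS614 (1.44-fold). These spots share the RNA of 1 culture and are no replicates of the condition.

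**Figure D3:**
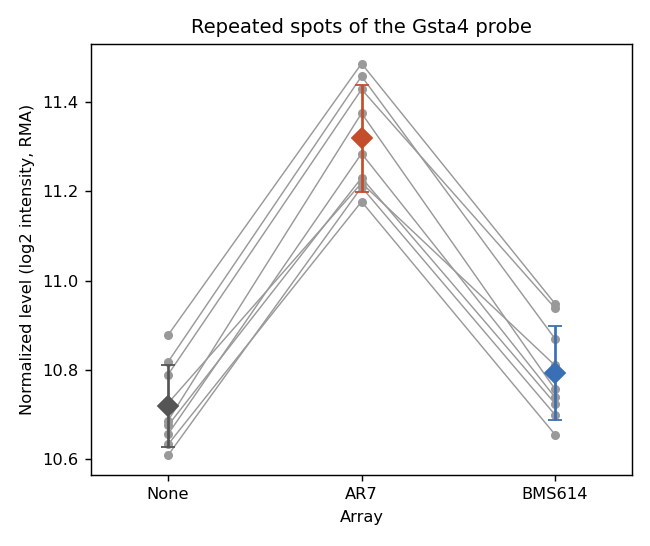
Normalized level (log2 intensity, vertical axis) of the 9 repeated spots of the Gsta4 probe on each array, with lines joining spots at the same position, diamonds for the mean and bars for the SD over spots. The spots on the AR7 array, from 11.18 to 11.49, lie above all spots on the None and BMS614 arrays.

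Gsta3 encodes an alpha-class enzyme that detoxifies aflatoxin epoxide in the mouse. Both of its probes were dim. The first had levels of 5.50 on the None array, 5.90 with AR7 and 5.47 with BMS614, and the second had 5.05, 5.56 and 5.05. In both probes the AR7 array was the highest and the other arrays differed by at most 0.03. The differences of AR7 from None, 0.40 and 0.52, were within 2 SD of the error at this signal (SD 0.38), so that Gsta3 was not counted.

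In the mu class, Gstm1, which encodes a broadly active conjugating enzyme, was higher with AR7 in both of its probes. The brighter probe had levels of 13.55 on the None array, 13.92 with AR7 and 13.59 with BMS614. The other had 11.86, 12.22 and 11.73. AR7 thus lay 0.37 (1.30-fold, SD 0.05) and 0.36 (1.28-fold, SD 0.05) above None. Against BMS614, AR7 was higher by 0.33 in the first probe and by 0.49 in the second, while the differences of BMS614 from None, 0.04 and -0.14, had opposite signs. Gstm2, whose human counterpart conjugates aminochrome, was not counted in any of its 3 probes. Its brightest probe had levels of 14.35 without treatment, 14.56 with AR7 and 14.47 with BMS614, a difference of 0.20 (SD 0.05) with AR7 and 0.12 (SD 0.05) with BMS614. The other Gstm2 probes differed by 0.02 and 0.19 with AR7 and by 0.03 and 0.00 with BMS614. Gstm5 had levels of 12.92, 12.95 and 12.97 on the None, AR7 and BMS614 arrays, and both differences, 0.03 and 0.05, were near 1 SD of the error or under it.

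Gstp1 encodes the pi-class enzyme, which is abundant in many cultured cells and also binds the kinase JNK. Its brighter probe had levels of 14.62 on the None array, 14.92 with AR7 and 14.64 with BMS614. Its other probe had 13.68, 14.02 and 13.53. AR7 was the highest array in both. The difference from None was 0.30 (1.23-fold, SD 0.05) in the first probe, just under the limit on size, and 0.34 (1.26-fold) in the second, just over it, so that Gstp1 was counted by its second probe and not as a gene. With BMS614 the 2 probes differed by 0.02 and -0.15 from None. AR7 lay 0.28 and 0.48 above BMS614.

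The theta-class gene Gstt1, whose enzyme acts on small halogenated compounds, had levels of 13.52 on the None array, 13.47 with AR7 and 13.51 with BMS614. Its difference of -0.05 (SD 0.06) was the only one of the 10 below 0 with AR7. Gsto1 encodes an omega-class enzyme with a cysteine in its active site, which reduces dehydroascorbate and methylated arsenic. It had levels of 15.82, 15.98 and 15.80 on the None, AR7 and BMS614 arrays, and lay 0.16 (1.12-fold, SD 0.05) above None with AR7, past 2 SD of the error and under the limit on size.

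Mgst1 encodes a microsomal transferase of the endoplasmic reticulum and the outer mitochondrial membrane that also reduces lipid hydroperoxides. Its probes had levels of 11.46 and 10.80 on the None array, 11.81 and 11.19 with AR7, and 11.53 and 10.81 with BMS614. In both, AR7 was the highest and the other arrays lay within 0.07 of each other. The differences with AR7 were 0.35 (1.27-fold, SD 0.05) and 0.39 (1.31-fold, SD 0.06). Against BMS614, AR7 was higher by 0.38 in the second probe, while the brighter probe gave 0.28, under the limit on size. The 5 genes with more than 1 probe (Gsta3, Gstm1, Gstm2, Gstp1 and Mgst1) gave the same sign with AR7 in each of their probes.

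Of the 21 other genes in the list of the GST families, 19 had a named probe and 14 were well above background on all 3 arrays. None of the 14 was higher or lower with AR7 or with BMS614 on its brightest probe, and 6 of 14 lay above 0 with each compound. Of all genes, 2.15% were higher and 1.88% lower with AR7, and 2.94% and 3% with BMS614, so these counts are near the background. Their median log2 difference was -0.02 with AR7, against 0.32 for the 10 genes above, and -0.03 with BMS614. For AR7 against BMS614 the median was 0.08. Gstm3, a mu-class gene, was the only one counted, at 0.32, where 2.01% of all genes were higher and 1.93% lower. Its difference from None was 0.04 for AR7 and -0.29 for BMS614. Both lists were drawn up with results of these arrays known, so the gap between them describes the lists and was not tested. Gstt4 was well above background on the None array alone, and was not counted. Its log2 difference from None was -0.89 with AR7 (SD 0.38) and -0.89 with BMS614 (SD 0.33). The scanner intensities were 151 on the None array, 150 with AR7 and 156 with BMS614. Gstk1, Gstm7, Gstt2 and Hpgds did not pass the background limit on any array.

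**Figure D4:**
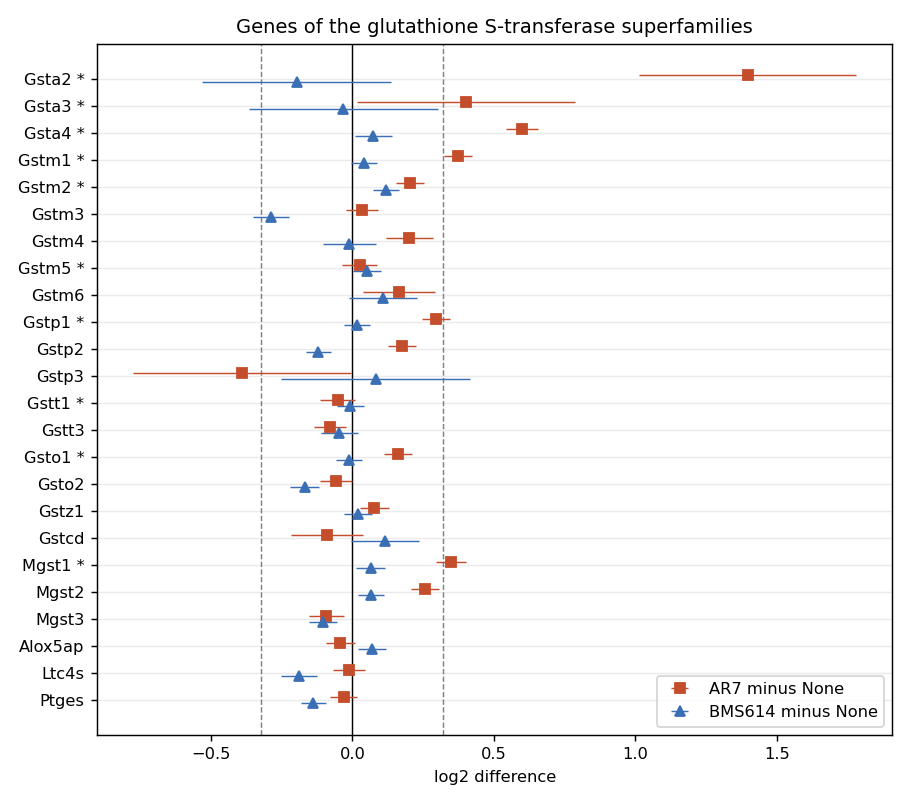
Log2 difference (horizontal axis) of 24 genes of the GST families for AR7 minus None and BMS614 minus None, 1 point per comparison from the brightest probe, with bars of 1 SD of the error from repeated spots, dashed lines at 0.32 and asterisks at the 10 chosen genes. The squares of Gsta2, Gsta4, Gstm1 and Mgst1 lie past the upper dashed line and past 2 SD of their error, and that of Gsta3 lies past the line and within 2 SD.

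The mu and pi genes lie in clusters. Along chromosome 3 the mu genes follow each other as Gstm5, Gstm7, Gstm6, Gstm3, Gstm2, Gstm1 and Gstm4, and their differences with AR7 in that order, without Gstm7, were 0.03, 0.16, 0.04, 0.20, 0.37 and 0.20. The largest was that of Gstm1, next to Gstm2 and Gstm4, at the end of the cluster away from Gstm5. On chromosome 19, Gstp1 (0.30), Gstp2 (0.18) and Gstp3 (-0.39, a dim probe with an SD of 0.38) are neighbours. The dimmer probe of Gstp2 gave 0.33 with AR7, past both limits, and -0.06 with BMS614. Neighbours of a cluster have similar transcripts, and the sequences of the probes were not analysed here, so a signal of one Gstm or Gstp gene may hold RNA of another. The same holds for the alpha-class genes, among them Gsta2 with its single dim probe, and Gsta1 had no named probe. Outside the clusters, Mgst2, which like Mgst1 conjugates and reduces lipid peroxides, lay at 0.25 with AR7 and 0.07 with BMS614, and Mgst3 at -0.09 and -0.10. Gstz1, the zeta-class enzyme of tyrosine breakdown, lay at 0.08 and 0.02. The remaining genes, Gsto2, Gstt3, Gstcd, Ptges, Alox5ap and Ltc4s, lay between -0.09 and -0.01 with AR7 and between -0.19 and 0.12 with BMS614, and Gstm6 at 0.16 and 0.11.

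Of 29 genes for the synthesis, recycling, use and export of glutathione, 24 were well above background on all 3 arrays, with a median log2 difference of 0.01 with AR7 and -0.01 with BMS614. With AR7, 2 of the 24 were higher and none was lower, against 2.15% and 1.88% of all genes. They were Esd (0.44), which encodes S-formylglutathione hydrolase, and Abcc1 (0.42), which encodes an exporter of glutathione conjugates. For BMS614 against None, Esd lay at 0.10 and Abcc1 at 0.30 (SD 0.06), the latter just under the limit on size. AR7 lay above BMS614 by 0.34 for Esd and by 0.13 for Abcc1. With BMS614, 1 was higher, the exporter Abcc4 (0.47), and none was lower, a count near the background of 2.94% and 3% of all genes. The subunits of the rate-limiting enzyme of glutathione synthesis, Gclc and Gclm, lay at 0.27 and 0.24 with AR7 and at 0.08 and -0.02 with BMS614, under the limit on size.

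Among 22 NRF2-responsive genes, a list without any GST gene, 21 were well above background on all 3 arrays. With AR7, 8 of these were higher and none was lower, and the median difference was 0.27, with 20 of 21 above 0. Of all genes, 2.15% were higher, 1.88% were lower and 48.7% lay above 0. The list shares Gclc, Gclm, Slc7a11, Esd and Abcc1 with the glutathione list, so that both genes counted there with AR7 are counted again here. That such genes were higher with AR7 was known when this list was drawn up. With BMS614, none of the 21 was higher or lower, a count near the 2.94% and 3% of all genes, and the median was 0.07. AR7 against BMS614 gave 4 higher and 0 lower, where 2.01% and 1.93% of all genes were, and a median of 0.19. The 8 genes were Nqo1, the quinone reductase, at 0.90 (levels of 10.42 without treatment, 11.32 with AR7 and 10.62 with BMS614), Esd, Pgd (0.42), Abcc1, Osgin1 (0.39), Hmox1 (0.36), Srxn1 (0.35) and Cbr3 (0.35). Of 9 genes for NRF2 itself, its partners and its regulators, none was higher or lower with either compound. For so few genes this count is near the shares of all genes given above. Their median was 0.09 with AR7 and -0.01 with BMS614. Nfe2l2, the gene of NRF2, lay at 0.02 with AR7, Keap1 at 0.11, Maff at 0.26, Sqstm1 at 0.16, Bach1 at 0.10, Mafg at 0.09, Cul3 at 0.04, Mafk at -0.02 and Nfe2l1 at -0.12. These are transcript levels and hold no measure of the NRF2 protein.

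Across 7 ways of processing the arrays, each of the 10 GST genes kept its sign for AR7 against None and for AR7 against BMS614, and 8 kept it for BMS614 against None, where Gsta3 and Gstp1 changed sign. Gsta2, Gsta4, Gstm1 and Mgst1 were counted as higher with AR7 in 7 of 7. Relative to the median of all probes, the spike-in scaling differs from the RMA values scaled to the 75th percentile by a constant alone in each comparison, so that it adds no separate check to the other 6. Over all 7, with the spike-in scaling included, Gsta4 ranged from 0.57 to 0.61, Gstm1 from 0.34 to 0.37, Mgst1 from 0.33 to 0.36 and Gsta2 from 0.63 to 1.45. Gstm1 against BMS614 was counted in 6 of 7, the lowest value being 0.31. Values after scaling on the spike-in controls are relative to the median of all probes, which that scaling moved by 0.19 for AR7, by 0.34 for BMS614 and by -0.14 for AR7 against BMS614.

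**Figure D5:**
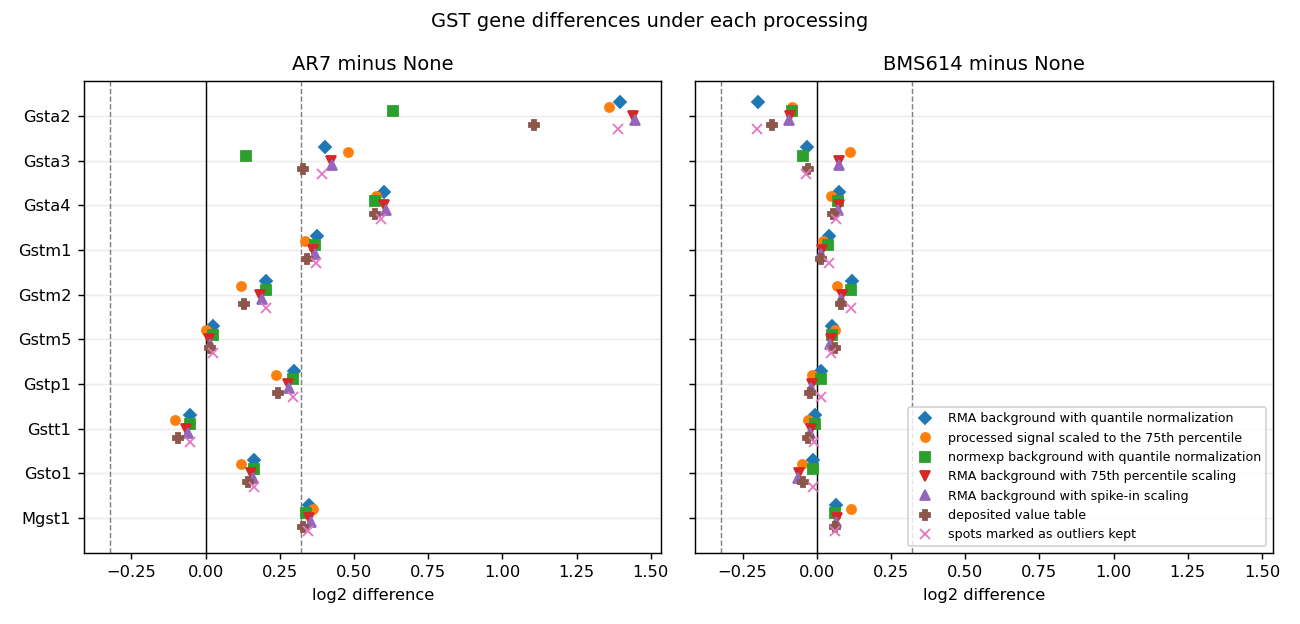
Log2 difference (horizontal axes) of the 10 GST genes for AR7 minus None and BMS614 minus None under 7 ways of processing the arrays, 1 symbol for each, with dashed lines at 0.32. The symbols of a gene lie close together except for Gsta2 and Gsta3, whose probes are dim and whose values with AR7 run from 0.63 to 1.45 and from 0.14 to 0.48.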

How the data were processed

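Per-spot intensity from the scanner software was deposited (Feature Extraction 10.7.3.1, Cy3, 3 arrays on one slide), without normalization, together with a table of processed intensity. The table's columns are linear in each array's background-subtracted intensity, with medians of 70.7 (AR7), 67.5 (BMS614) and 65.0 (None), and served as an alternative with values under 16 set to 16. The submitters' processing notes name RMA and oligo. Here the RMA convolution background, quantile normalization over 3 arrays and log2 were applied to the median intensity of each spot, without the oligo package (R 4.3.3, limma 3.58.1, Python 3.11.15, numpy 2.4.6, pandas 2.3.3, matplotlib 3.10.9). A spot position marked as an outlier on any array was left out on all 3, spots of a probe were averaged, and a gene was read from its probe with the highest mean signal. Accessions were matched to the RefSeq gene table (GRCm38.p6), which named 27235 of 55681 probes. It also gave the order of neighbouring genes. The coordinates printed with the promoter sequences come from the separate RefSeq table of promoters.

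The limits of 0.32 (log2) and 2 SD (for a probe of several spots, divided by the square root of their number) applied where all 3 arrays were well above background. The error came from 265 probes printed 10 times, in 10 bins of signal. Counting was run on simulated data with noise drawn from this same error, so that run holds no variation between cultures or arrays. With 1 array per condition no test was made, and the number of arrays limits the precision. Members, gene lists and rules were chosen with earlier results of these data known. The genes named are the 10 members, other GST genes well above background on 3 arrays, list genes counted with either compound and all regulators of NRF2. Gclc, Gclm and Slc7a11, the dim GST genes and the markers Col3a1, Epcam and Krt14 were named after their values were seen. Alternatives were other background corrections, scalings, the deposited table, outlier spots kept, probes of a gene averaged, no filter on dim probes and other limits. CA39 and CA77 were not analysed here.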

Additional observations from a re-analysis of the deposited data

How the results depend on the processing

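No paired analysis was possible because there is 1 array per condition, and no array could be left out for the same reason. Of the results that answer a comparison, 108 values under an alternative stayed near the reported value and 12 moved. Medians near 0 changed sign. The median of the other GST genes for AR7 against None, -0.02 as reported, was 0.0173 after 75th percentile scaling of the processed signal and 0.0127 in the deposited table. The median of the 10 genes for BMS614 against None, 0.03 as reported, was -0.0042 in the deposited table and -0.0097 with a gene's probes averaged. Genes higher with AR7 numbered 4, and 2 at 1.5-fold, 1 at 2-fold and 7 by 2 SD alone. With BMS614 they numbered 0, and 2 by 2 SD alone. For AR7 against BMS614 they numbered 3, and 5 with a gene's probes averaged, 1 at 1.5-fold, 1 at 2-fold and 7 by 2 SD alone. After normexp correction the median of the 10 genes was 0.25 for AR7 against None and 0.23 for AR7 against BMS614. With a gene's probes averaged, the latter was 0.36. Without the filter on dim probes, the median of the other GST genes for AR7 against BMS614 was 0.0182. Other limits on size or error change a count by construction, and the cause of the other moves was not tested. For single probes, 270 values stayed near the reported one and 18 moved.

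Signal over background limits what can be read for Gsta2 and Gsta3, where the SD between repeated spots was 0.38, against 0.05 to 0.08 for the brighter GST probes. Differences between cultures grown, labelled and hybridized apart are not held in any error given here.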
